A study of Mus musculus with 30 samples.

Results

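The FOS and JUN family was followed here through 8 genes, Fos, Fosb, Fosl1, Fosl2, Jun, Junb, Jund and Batf, in blood mononuclear cells of mice given oleic acid (OA). The members were taken as every non-control probe that carried one of these gene names on the array, which gave 9 probes of 55681, 1 for each gene except Fosl2, which had 2. The cells came from female C57BL/6 mice aged 6 weeks, described as PBMC (peripheral blood mononuclear cells) and collected over a Ficoll gradient after the anesthetized animals received OA or, as controls, physiological serum in the tail vein. Blood was taken 1, 1.5, 3, 4, 18 or 24 h later, and each of the 30 arrays held RNA of 1 sample in 1 colour. OA arrays numbered 3 at each time except 4 h, with 2. Of the serum arrays, 3 were from 1 h and 3 from 1.5 h, 2 each from 3, 18 and 24 h, and 1 from 4 h. OA given into a vein is a model of acute lung injury, and the comparison asks how the circulating cells respond to it over the first day. No genetic change was involved, and both arms shared the anesthetic (xylazine and ketamine) and the injection. The treatment notes speak of a single control mouse per time, so serum arrays of the same time may share an animal, and p-values then measure only the spread between these samples.

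Proteins of the FOS and JUN families dimerise through leucine zippers to form the transcription factor AP-1. FOS proteins bind DNA only as partners of JUN proteins, whereas JUN proteins can also pair with each other, and BATF, which lacks a transactivation domain, pairs with JUN proteins in lymphocytes and dendritic cells. Fos, Fosb, Jun and Junb are immediate early genes, transcribed within minutes of a stimulus from factors already present in the cell, and their messages are short-lived. Blood leukocytes are known to raise them on stimulation and also on handling.

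Levels are given as log2 signal minus the 75th percentile of the same array, so that 0 is the level below which 75% of the probes of that array lie, and differences as OA minus serum on that scale. A level of one probe cannot be set against that of another, so genes were compared only with themselves. The 75th percentile lay between 40.2 and 152 signal units, and the share of probes well above background between 34.6% and 64.8%. All 12 T cell, all 12 B cell, all 12 neutrophil and all 12 platelet markers were well above background on all 30 arrays, and so were hemoglobin genes, so the preparations held RNA of granulocytes, platelets and red cells beside that of mononuclear cells. In such mixed samples fewer cells of a type and less RNA per cell cannot be told apart. The intergenic signal, which is the mean log2 level of probes for long intergenic RNAs minus that of probes detected on all 30 arrays, ran from -6.22 to -3.47. It was highest in serum 24 h replicate 1, at -3.47, and OA 4 h replicate 2, at -3.72. These were also the arrays with the lowest median correlation with the others, 0.813 and 0.85. Serum 1.5 h replicate 3, at 0.895, was the next lowest. Calls that rest on these 3 arrays are given with and without them.

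The stretch just upstream of 4 immediate early members is shown because these genes share a mode of induction, while their relations across the arrays, described further on, ranged from close (Fos and Fosb, Fos and Junb) to an r near 0 (Jun and Junb). The sequences are the 150 bases before the transcription start, 5′ to 3′ on the gene's strand, from RefSeq on GRCm38.p6: Fos at chr12:85473740-85473889, plus strand, Fosb at chr7:19310046-19310195, minus strand, Jun at chr4:95052223-95052372, minus strand, and Junb at chr8:84978749-84978898, minus strand. Capitals mark TGACG, the cAMP response element (CRE) half-site, TGACATCA, a variant of the AP-1 and CRE sites, and TATAAA, the TATA box.
Fos: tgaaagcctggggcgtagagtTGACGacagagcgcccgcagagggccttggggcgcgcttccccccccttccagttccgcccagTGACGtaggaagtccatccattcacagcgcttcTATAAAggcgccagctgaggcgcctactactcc
Fosb: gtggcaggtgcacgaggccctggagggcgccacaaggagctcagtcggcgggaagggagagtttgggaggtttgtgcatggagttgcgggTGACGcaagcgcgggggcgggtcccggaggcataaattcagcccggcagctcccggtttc
Jun: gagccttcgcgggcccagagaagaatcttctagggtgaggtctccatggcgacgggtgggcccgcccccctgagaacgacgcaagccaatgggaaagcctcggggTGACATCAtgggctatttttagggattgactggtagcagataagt
Junb: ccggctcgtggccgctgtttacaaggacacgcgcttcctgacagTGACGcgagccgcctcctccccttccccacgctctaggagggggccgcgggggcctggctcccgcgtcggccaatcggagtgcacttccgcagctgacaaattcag

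The table of promoters, which runs from 250 bases before to 50 after each start, held 7 of the 8 members, all but Fosl1. Searched on both strands, TGACG was found in 4 of them (Fos, Fosb, Junb and Batf) and in 20.8% of all 32851 promoters. In Fos it lay at -129 to -125 and again at -66 to -62, with TATAAA at -33 to -28, upstream of the start. In Fosb it lay at -60 to -56, in Junb at -106 to -102 and in Batf at -98 to -94. TGACNTCA, found in 8.83% of promoters, was present in 1 of the 7, Jun, at -45 to -38. The full CRE, TGACGTCA, was in 1.79% of promoters and the AP-1 site, TGANTCA, in 7.81%, and no member's window held either. These motifs overlap, as TGACGTCA also counts under TGACG and TGACNTCA. TATAAA was in 13.6% of promoters and in the windows of Fos and Junb, in Junb at 1 to 6, after the start. CCAAT was in 37.4% and in those of Jun and Junb. The CArG box, searched by name, was in 1.63% of promoters and in none of the members, and the NF-kB site was in 4.51% of promoters and in those of Fos, Fosb and Fosl2. A match is a description of the letters, and its absence says only that they are not in this window.

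Fos, the prototype of the family, was read by a probe at chr12:86817900-86817959 (plus strand, mm9) printed in 10 spots. The median SD between those spots of 1 array was 0.078, against an SD of 1.16 between arrays. At 1 h the serum arrays gave 1.22, 1.92 and 4.47 and the OA arrays 2.99, 5.01 and 4.02. The OA mean exceeded the serum mean by 1.47 (SE 0.66, 95% interval 0.10 to 2.84, limma adjusted p = 0.822), but the third serum array lay above 2 of the 3 OA arrays. At 1.5 h all 6 arrays were high, at 3.95, 4.12 and 4.63 after serum and 4.97, 4.38 and 5.23 after OA, and the groups overlapped.

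Fos stayed high in the OA arrays at 3 h, at 4.55, 4.47 and 4.39, above both serum arrays, at 4.02 and 3.15, a difference of 0.88 (SE 0.74, limma adjusted p = 0.747). At 4 h the order was the other way, with 2.44 and 1.35 after OA against 3.09 on the only serum array, a difference of -1.20 (SE 0.99, limma adjusted p = 0.573). The lone serum array was assumed to vary like the other groups. At 18 h the serum arrays gave 2.23 and 3.91 and the OA arrays 3.60, 4.72 and 3.20, and the groups overlapped. At 24 h the 3 OA arrays, at 2.68, 3.82 and 3.82, lay above both serum arrays, at 1.5 and 1.95. That difference of 1.72 was the largest of the 6 for Fos (SE 0.74, 95% interval 0.18 to 3.26), and it missed the threshold of 0.05 after adjustment over all genes (limma adjusted p = 0.0773). Without serum 24 h replicate 1 it was 1.49, with a limma adjusted p of 0.611.

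The neutrophil markers, averaged over the 12 genes of their list, moved with Fos at 1 h. They stood at 3.31, 3.59 and 5.41 in the serum arrays, in the order in which Fos was given, and at 4.87, 4.88 and 4.74 in the OA arrays, so the serum array with the high Fos value also had the highest neutrophil signal. At 4 h the list stood at 4.50 in the serum array and at 3.39 and 3.18 in the OA arrays. At 3 and 18 h its median differences were 0.45 and 0.97, with Fos at 0.88 and 0.77. At 1.5 h the list went the other way, with a median of -0.46 where Fos differed by 0.63. At 24 h the list overlapped, at 3.17 and 3.47 after serum and 2.58, 4.39 and 3.71 after OA, whereas Fos did not. The part of these markers in the Fos differences was not tested. The OA arrays of 1 h with Fos at 5.01 and 4.02 lay on slide 5, which held no serum array, and the one at 2.99 on slide 1. Slide 1 held arrays of both treatments at 1 h, and within it the Fos difference was 0.14. At 1.5 h they were 0.26 and 0.61 within the slides that held both treatments, and at 3 h the value was 1.32. Within slide 3 it was -1.75 at 4 h, and within slide 2 it was 0.80 at 18 h, each between 1 OA and 1 serum array. No slide held both treatments at 24 h, so no within-slide value exists for that time.

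**Figure D1:**
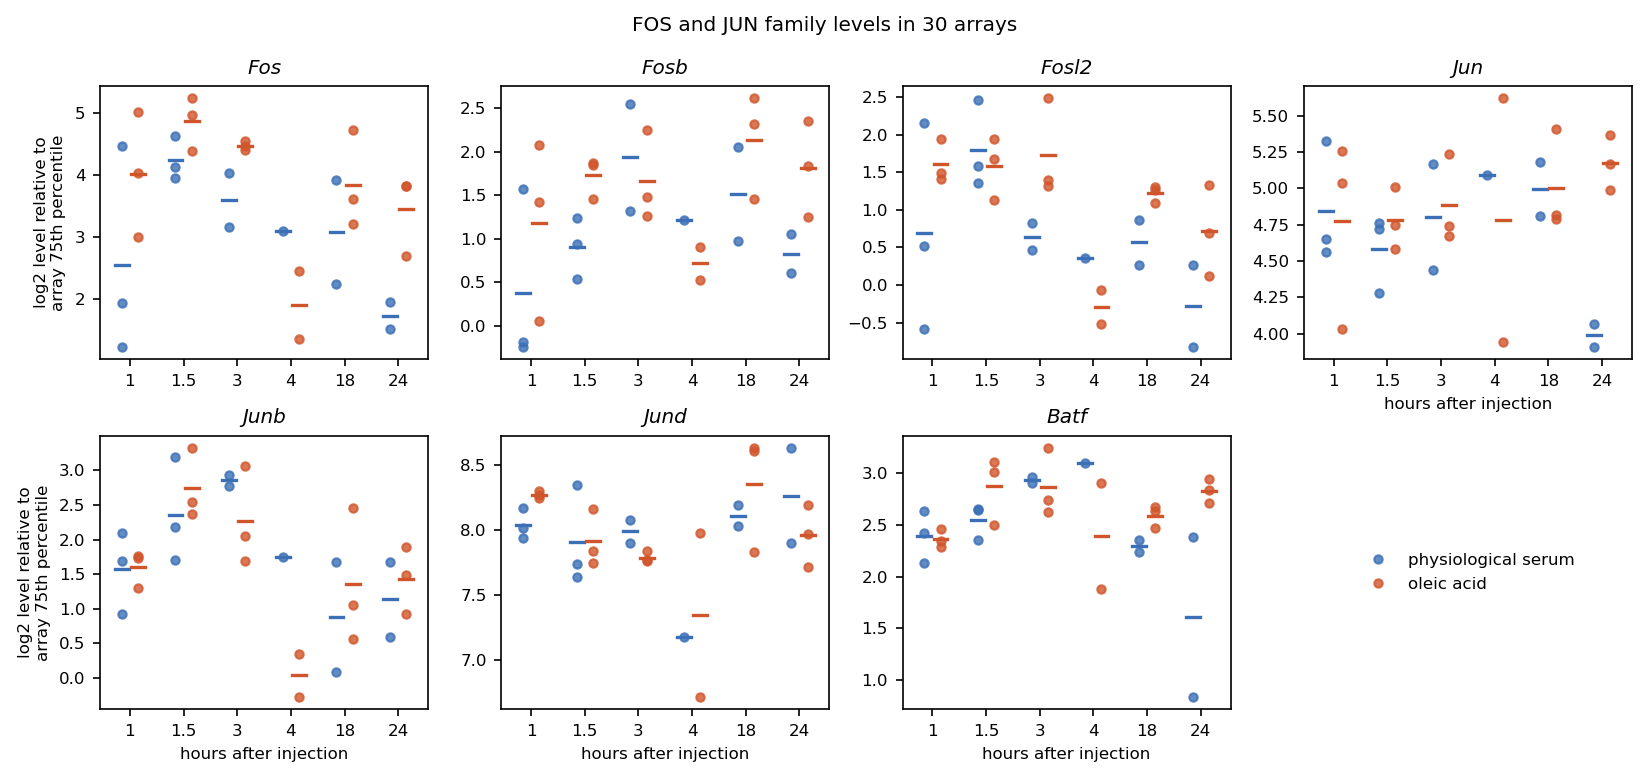
Log2 levels of the 7 members measured above background, relative to the 75th percentile of each array (vertical axes, own scale in each panel), against hours after injection (equally spaced categories). Points are arrays, blue for physiological serum and orange for oleic acid, and short lines are group means. At 24 h all OA points of Fos, Fosb, Jun and Batf lie above the serum points, and at 4 h both OA points of Fos, Fosb, Fosl2, Junb and Batf lie below the single serum point.

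Fosb, an immediate early gene often induced together with Fos, was read by 1 spot at chr7:19888168-19888227 (minus strand, mm9). Its OA minus serum differences ran from -0.49 at 4 h to 0.98 at 24 h, and none had an unadjusted limma p under 0.05. At 1.5 h the OA arrays, at 1.87, 1.46 and 1.85, all lay above the serum arrays, at 0.54, 0.94 and 1.24. The same held at 24 h, with 1.25, 1.84 and 2.35 after OA against 1.05 and 0.61 after serum. At 4 h both OA arrays, at 0.91 and 0.53, lay below the serum array at 1.21.

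Fosl2, which encodes FRA-2, was called from the higher of its 2 probes, at chr5:32460076-32460135 (plus strand, mm9), well above background on all 30 arrays. At 3 h the OA arrays stood at 1.40, 1.31 and 2.48 and the serum arrays at 0.82 and 0.47, without overlap. The difference of 1.09 (SE 0.58) did not pass the test (limma adjusted p = 0.657). The OA arrays were also above serum at 18 h, at 1.09, 1.30 and 1.27 against 0.27 and 0.87, and below it at 4 h, at -0.07 and -0.52 against 0.36.

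The second Fosl2 probe, at chr5:32455088-32455147 in the same gene, gave another picture. It was well above background on 10 of 30 arrays, and its highest group was serum at 24 h, with 0.62 and -0.62. At that time the OA arrays stood at -5.29, -3.15 and -4.14, not well above background, whereas on the higher probe OA was the higher group, at 0.12, 1.33 and 0.69 against -0.82 and 0.27. Across the 30 arrays the lower probe followed the intergenic signal, with a Pearson r of 0.73 (permutation p = 1e-05, the smallest that 100000 resamples can give, adjusted over 3 relations 3e-05) and a Spearman rho of 0.61 (permutation p = 0.00047, adjusted 0.00141). The r was 0.54 without the 2 arrays farthest from the median, 0.65 on slide 1 and 0.76 on slide 3. With the higher probe its r was -0.31 (permutation p = 0.0993) and its rho -0.13 (permutation p = 0.483). The probes of this gene therefore disagreed. At 24 h the lower probe, tested on its own as a choice added after seeing the data, differed by -4.19 (SE 0.82, limma adjusted p = 0.0113) and the mean of both by -1.60 (SE 0.49, limma adjusted p = 0.0248), so Fosl2 passed the test downwards under these choices, against 0.99 (limma adjusted p = 0.176) for the higher probe. Every Fosl2 value given elsewhere, unless stated, is that of the higher one.

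**Figure D2:**
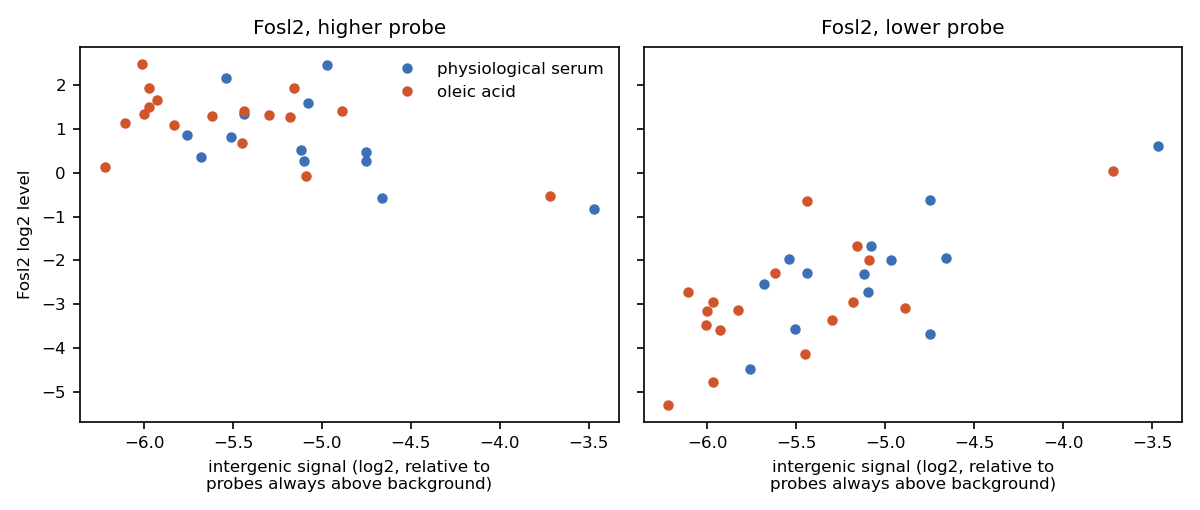
Log2 level of the higher (left) and the lower (right) Fosl2 probe, relative to the 75th percentile of the array, against the intergenic signal of the array, in log2 units. Each point is 1 of 30 arrays, blue for physiological serum and orange for oleic acid. The lower probe rises with the intergenic signal (r = 0.73), and the higher probe falls with it (r = -0.56).

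Fosl1, which encodes FRA-1, was at background on all 30 arrays (probe at chr19:5455496-5455555, plus strand, mm9). Only an upper bound on its level was therefore measured in any group, and the filter on dim probes left it out of the tests. Without that filter its signal at 24 h differed by -1.47 (SE 0.49, limma adjusted p = 0.0329), with both groups at background, so it has no fold. The counts of members that follow are over the other 7.

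Jun, the partner that FOS proteins need, was read at chr4:94716928-94716987 (minus strand, mm9), and its level varied less than that of Fos, with an SD of 0.45 between arrays. From 1 to 18 h its differences lay between -0.31 and 0.19 and the groups overlapped at each of these 5 times. At 24 h the serum arrays stood at 3.91 and 4.07, the lowest group mean of the 12, while the OA arrays gave 5.17, 4.99 and 5.37. Jun was thus higher by 1.19 after OA (SE 0.43, 95% interval 0.30 to 2.08) and passed the test, with a limma adjusted p of 0.0439.

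Batf was read at chr12:87049872-87049929 (plus strand, mm9) in 10 spots, with a median SD of 0.063 between spots and an SD of 0.45 between arrays. At 24 h the OA arrays, at 2.84, 2.94 and 2.71, lay close together and above the serum arrays, at 0.84 and 2.38. Batf was higher by 1.22 (SE 0.37, 95% interval 0.45 to 1.99, limma adjusted p = 0.0253). The value of 0.84, from serum 24 h replicate 1, was the lowest of all 30. At 18 h the 3 OA arrays, at 2.63, 2.47 and 2.67, also lay above the serum arrays, at 2.24 and 2.35, but by 0.29 only (limma adjusted p = 1).

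Jun and Batf at 24 h were thus the 2 members of 7 that passed the adjusted threshold of 0.05 in any comparison of OA with serum, both upwards, with the higher Fosl2 probe and the filter on dim probes in use. At that time 29.7% of all 25206 genes tested passed it (13.1% upwards). All 7 members tested were well above background on all 30 arrays. Among genes well above background on at least 15 arrays, 78.9% of the calls were upwards (3165 higher and 847 lower). Under the 3 other scalings (probes detected on all arrays, quantile normalization, the authors' series table) the Batf difference was 0.71, 0.81 and 0.73 and still passed, and that of Jun was 0.68, 0.63 and 0.72 and did not (limma adjusted p 0.142, 0.168 and 0.0873). With normexp background correction Fos passed as well, at 1.81 (limma adjusted p = 0.0399), with 5201 of all genes called higher and 5613 lower. Both calls were lost when serum 24 h replicate 1 was left out. Batf then differed by 0.45 (limma adjusted p = 0.687) and Jun by 1.11 (limma adjusted p = 0.52), and 38 genes were called in all, 2 upwards, in place of 7483. Without all 3 arrays that stand apart the limma adjusted p was 0.558 for Batf and 0.384 for Jun. Without serum 24 h replicate 2, Batf differed by 1.99 (limma adjusted p = 0.00145) and Jun by 1.27 (limma adjusted p = 0.0579). With 1 OA array of 24 h left out at a time, Jun had an adjusted p between 0.0687 and 0.0996, and Batf 0.0676 without replicate 1, 0.0588 without replicate 2 and 0.0436 without replicate 3. Over 13 alternatives and 30 fits with 1 array left out, the Jun call was lost in 18 and the Batf call in 7. The count of members called also fell to 1 without some arrays of other times, such as OA 1 h replicate 3 or serum 1.5 h replicate 2.

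Several other measures moved with the 24 h difference. The intergenic signal was -3.47 and -4.75 in the serum arrays and -6.22, -6.00 and -5.45 in the OA arrays. With that signal as a covariate Jun differed by 0.19, Batf by 0.44 and Fos by 0.29 (limma adjusted p = 0.999 each). Both serum arrays lay on slide 1 and the OA arrays on slides 5, 3 and 2, and with slide as a block Jun differed by 0.91 (limma adjusted p = 0.26) and Batf by 1.18 (limma adjusted p = 0.176). Slide 5 held 5 arrays, all OA, from 1, 3, 18 and 24 h, and they alone made up 1 of the 2 scan days. No serum array shared that slide or day.

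Cell markers differed at 24 h as well, where 3296 of all 25206 genes were called higher after OA and 4187 lower. Of 11 monocyte markers 6 were higher after OA, and the mean of the list was 0.14 and 1.05 in the serum arrays against 2.49, 2.74 and 2.61 in the OA arrays. Of 12 B cell markers 6 were higher, with list means of 2.13 and 3.52 against 3.81, 4.02 and 4.13. Of 12 T cell and 12 neutrophil markers 0 were called after adjustment by limma, and 1 and 0 had an unadjusted p under 0.05. Of 8 lung epithelium and endothelium markers measured, 3 were lower after OA, with list means of 1.26 and 0.19 against -2.36, -2.14 and -1.95. Sftpc, a surfactant protein gene of the alveolar epithelium, was well above background on both serum arrays and on no OA array of 24 h, at least 35.7-fold higher in serum (limma adjusted p = 1.13e-06). Without serum 24 h replicate 1 no marker of these lists was called but 1 of the lung list. How far any of these took part in the Jun and Batf differences was not tested.

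Junb, often an antagonist of Jun at shared sites, was read at chr8:87501881-87501940 (minus strand, mm9). It had its largest difference at 4 h, with 0.35 and -0.27 after OA against 1.75 on the single serum array, a difference of -1.71 (SE 0.80, 95% interval -3.37 to -0.05). That gave an unadjusted limma p of 0.0428 and an adjusted p of 0.457. Within slide 3 the difference at 4 h was -2.02, between OA 4 h replicate 2 and the serum array. At the other 5 times the groups overlapped, with differences of -0.58 to 0.48.

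Jund, the member least tied to stimulation, was read at chr8:73224436-73224495 (plus strand, mm9). Its differences lay between -0.30 and 0.24, and its SD between arrays was 0.39. Under other scalings they were larger, with -0.81 at 24 h and 0.73 at 4 h after scaling to the probes detected on all arrays and -0.82 and 0.71 after quantile normalization, and none passed the test. At 1 h the OA arrays, at 8.25, 8.30 and 8.27, lay just above the serum arrays, at 8.17, 8.02 and 7.94. At 3 h they lay just below, at 7.84, 7.77 and 7.76 against 8.08 and 7.90. Both gaps were within the interval of the fit, 0.23 (-0.41 to 0.87) and -0.20 (-0.93 to 0.53). The 24 h groups overlapped.

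Beyond the 24 h calls, the counts by time were set against all genes. At 1, 1.5, 3, 4 and 18 h no member and no gene passed the adjusted threshold (0% called). At an unadjusted limma p under 0.05 there was 1 member at 1 h, Fos, upwards, against 5.4% of all genes (0.968% upwards). There were 0 members at 1.5, 3 and 18 h, against 9.96%, 7.74% and 0.988% of genes. There was 1 at 4 h, Junb, downwards, against 10.9% (5.8% downwards), and there were 3 at 24 h, Fos, Jun and Batf, upwards, against 46.1% (22.7% upwards). OA arrays lay wholly above serum arrays for 1 member at 1 h (Jund, 2.89% of genes), 1 at 1.5 h (Fosb, 16.6%), 2 at 3 h (Fos and Fosl2, 16.4%), 2 at 18 h (Fosl2 and Batf, 2.69%) and 4 at 24 h (Fos, Fosb, Jun and Batf, 25.8%). They lay wholly below for 1 at 3 h (Jund, 14% of genes) and for 5 at 4 h (Fos, Fosb, Fosl2, Junb and Batf, 39.7%), where 1 serum array stood alone. Of the 7 members 5 had a difference above 0 at 1 h (44.1% of all genes), 6 did at 1.5 h (52.4%) and 3 did at 3 h (55.7%). At 4 h it was 1 member (44.4%), at 18 h all 7 (40.7%) and at 24 h 6 (49.3%). The median over the members was -0.66 at 4 h, 0.48 at 18 h and 0.99 at 24 h, against -0.16, -0.07 and -0.04 over all genes.

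**Figure D3:**
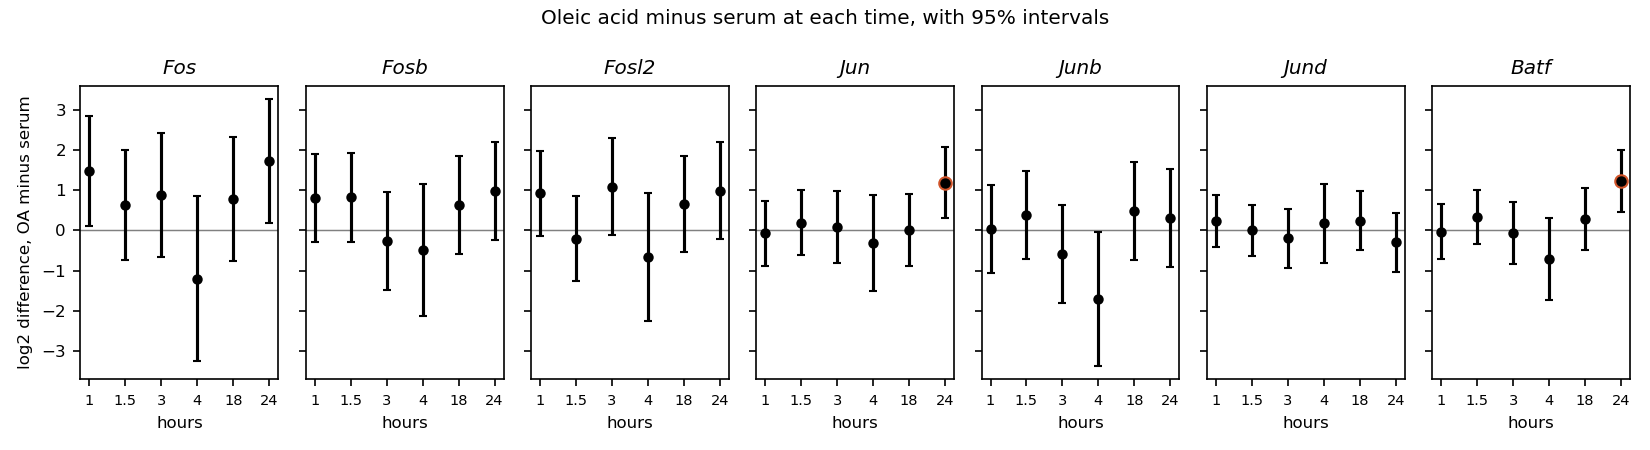
Log2 difference, OA minus serum, of the 7 members (panels) at each time in hours (horizontal axes), with 95% intervals from the limma fit as bars. Points ringed in orange passed the adjusted threshold of 0.05. These are Jun (1.19) and Batf (1.22) at 24 h, and the intervals of all other points but Fos at 1 and 24 h and Junb at 4 h include 0.

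Averaged over the 6 times with equal weight, OA minus serum was above 0 for 6 of 7 members (44.5% of all genes), with 0.71 for Fos, 0.46 for Fosl2, 0.41 for Fosb, 0.18 for Jun, 0.17 for Batf and 0.02 for Jund, and was -0.18 for Junb. Fos was the 1 member under an unadjusted limma p of 0.05 (SE 0.31, 95% interval 0.07 to 1.35), against 14.6% of genes (5.7% upwards). No member passed after adjustment (limma adjusted p of Fos 0.321), and 0.00397% of genes did. Without the single serum array of 4 h, which leaves 5 times in the mean, Fos was 1.09 with a limma adjusted p of 0.0451. Over all genes the calls for this mean ran from 0 to 3287 with 1 array left out at a time. The signs for Jun, Junb, Jund and Fosl2 turned under at least 1 other setting, so no direction is given for them. Of the tests that the 6 differences of a member differ from each other, none passed (limma F test, lowest adjusted p 0.322, for Batf), and none had an unadjusted p under 0.05, against 16.6% of genes (0.00794% after adjustment).

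The OA minus serum difference of Batf on the next day (18 and 24 h) exceeded that of the first hours (1 to 4 h) by 0.88, which did not pass the test (SE 0.32, 95% interval 0.22 to 1.54, limma adjusted p = 0.269). It was the 1 member under an unadjusted p of 0.05, against 14.4% of genes (4.26% upwards), and no gene passed after adjustment (0%). The change was above 0 for 6 of 7 members and for 54.7% of genes. Without serum 24 h replicate 2 it was 1.26, and without replicate 1 it was 0.49, each time with 1 serum array left at 24 h. In the serum arrays Batf differed by -0.79 between the next day and the first hours (SE 0.25, limma adjusted p = 0.258), whereas in the OA arrays the next day differed from the first hours by 0.09. Without serum 24 h replicate 2 the serum change was -1.17, and without replicate 1 it was -0.40.

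In the serum arrays alone, Junb differed by -1.12 between the next day and the first hours (SE 0.40, limma adjusted p = 0.32). Batf and Junb were the 2 members under an unadjusted p of 0.05, both downwards, against 10% of genes (6.39% downwards), and none passed after adjustment (0.155% of genes did). Fos differed by -0.96 and Fosl2 by -0.73, with limma adjusted p of 0.524 and 0.536, and 2 of 7 members were above 0 (49.6% of genes). In the OA arrays no member was under 0.05 before adjustment (15.3% of genes) or after it (0.163%), and 4 of 7 were above 0 (50.3%). The serum and OA changes over time share no arrays, and their difference is the test just given for Batf.

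Differences between single times within a treatment were tested as well. The limma F test over the 6 serum groups had an unadjusted p under 0.05 for 4 members, Fos (0.044), Fosl2 (0.0406), Junb (0.0427) and Batf (0.0363), against 13% of all genes. Over the 6 OA groups it was under 0.05 for 3, Fos (0.0125), Fosl2 (0.0177) and Junb (0.00374), against 18.2%. No member passed after adjustment in either (0.0595% and 0.171% of genes did), with 0.123 for Junb after OA the lowest adjusted p.

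Ordered by group mean, Fos ran from 1.72 in serum at 24 h and 1.89 in OA at 4 h to 4.47 in OA at 3 h and 4.86 in OA at 1.5 h. No 2 neighbours in that order were separate, since their arrays overlapped, and the same held for Fosb, Junb and Jund. For Fosl2 the 2 lowest groups, OA at 4 h (mean -0.30) and serum at 24 h (-0.28), lay below the next, serum at 4 h (0.36). For Jun serum at 24 h (3.99) lay below the next group. For Batf OA at 18 h (2.59) and serum at 3 h (2.93) were each separate from the group above.

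The members varied together to differing degrees across the 30 arrays, which pool both treatments and all times and share a scaling to the 75th percentile. Fos and Fosl2 were closest, with a Pearson r of 0.87 (permutation p = 1e-05, adjusted over 21 pairs 0.00021) and a Spearman rho of 0.84 (permutation p = 1e-05, adjusted 0.00021). Leaving out the 2 arrays farthest from the median of Fos gave 0.83. The r was 0.92 on slide 1 and 0.91 on slide 3, the slides with 8 arrays each, and 0.77 for deviations from the 12 group means. Within groups, too, arrays higher in Fos were higher in Fosl2.

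Fos followed Fosb with r = 0.69 (permutation p = 2e-05, adjusted 0.00021; rho 0.67, permutation p = 9e-05, adjusted 0.00063) and Junb with r = 0.66 (permutation p = 1e-04, adjusted 7e-04; rho 0.68, permutation p = 5e-05, adjusted 0.000525). Without the 2 farthest arrays these were 0.61 and 0.65, on slide 1 they were 0.77 and 0.64, and on slide 3 0.79 and 0.92. Fosb followed Jun with r = 0.55 (permutation p = 0.00158, adjusted 0.00553; rho 0.57, permutation p = 0.00119, adjusted 0.00625) and 0.59 without the 2 farthest arrays, with 0.52 and 0.50 within slides 1 and 3. It was 0.43 under both other scalings and no longer passed.

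Jun followed Batf with r = 0.58 (permutation p = 0.00042, adjusted 0.0022; rho 0.41, permutation p = 0.0238, adjusted 0.0712), which fell to 0.36 without the 2 arrays farthest from the median of Jun and to 0.25 and 0.16 under other scalings, so it rests on those arrays and on the scaling. Within slides 1 and 3 it was 0.62 and 0.87. Jun and Junb had r = -0.01 (permutation p = 0.948) and rho -0.12 (permutation p = 0.545), with 0.57 and 0.53 within slides 1 and 3, -0.35 without the 2 farthest arrays and -0.39 and -0.38 under the other scalings. No pair with Jund passed, with r between -0.23 and 0.15. For Jund and Batf, however, r was -0.62 with scaling to the probes detected on all arrays (adjusted permutation p = 0.00392), -0.69 after quantile normalization (adjusted permutation p = 0.00178), -0.48 without the 2 farthest arrays (adjusted permutation p = 0.0274), -0.92 on slide 1 and 0.21 on slide 3. Of the 21 pairs 10 passed an adjusted permutation p of 0.05 by Pearson r, in each case with a positive r. Under the first of those scalings 4 pairs passed, 3 of them among the 10, and after quantile normalization 5, with 4 among the 10. By Spearman rho the pairs that passed were Fos with Fosb, Fosl2 and Junb, Fosb with Jun, and Fosl2 with Junb. The other pairs among the 10, of Fos with Jun and of Batf with Fos, Fosl2, Jun and Junb, did not.

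**Figure D4:**
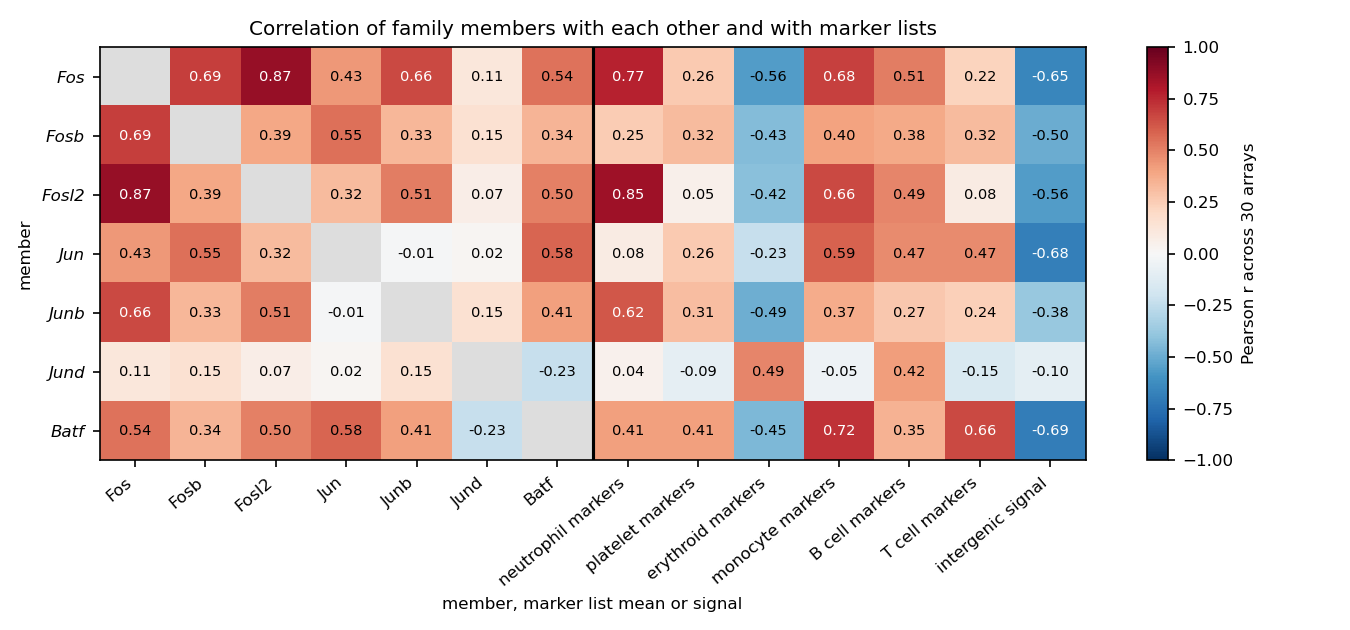
Pearson r across 30 arrays between the log2 levels of each member (rows) and the other members, the mean log2 level of 6 marker lists and the intergenic signal (columns), on a scale from -1 (blue) to 1 (red), with values printed. Fos, Fosl2 and Junb go with the neutrophil markers (0.77, 0.85 and 0.62), Batf, Fos and Fosl2 with the monocyte markers (0.72, 0.68 and 0.66), Batf with the T cell markers (0.66), and Jund with the erythroid markers (0.49).

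Cell markers were compared with the members over 49 relations, of 7 members with 6 marker lists and the intergenic signal. Differences between the members in these relations were not tested. Members and marker lists share the same scaling of each array, and none of the 49 relations was computed under another scaling. Whether they depend on the scaling, as some pairs of members did, was therefore not tested. Fosl2 followed the neutrophil list with r = 0.85 (permutation p = 1e-05, adjusted 0.000245) and rho = 0.86 (permutation p = 1e-05, adjusted 0.000245), and Fos did with r = 0.77 (permutation p = 1e-05, adjusted 0.000245) and rho = 0.78 (permutation p = 1e-05, adjusted 0.000245). Without the 2 farthest arrays the values were 0.84 and 0.74, and within slides 1 and 3 they were 0.94 and 0.77 for Fosl2 and 0.94 and 0.78 for Fos. They held in the serum arrays (0.86 and 0.87) and in the OA arrays (0.87 and 0.72). Junb followed the list with r = 0.62 (permutation p = 0.00035, adjusted 0.00172; rho 0.62, permutation p = 4e-04, adjusted 0.0048), with 0.53 without the 2 farthest arrays and 0.72 and 0.68 within slides 1 and 3. For Fosb and Jun the r with the neutrophil list was 0.25 and 0.08 (permutation p = 0.185 and 0.656).

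Batf followed the monocyte list with r = 0.72 (permutation p = 3e-05, adjusted 0.000294; rho 0.64, permutation p = 2e-04, adjusted 0.00327) and the T cell list with r = 0.66 (permutation p = 8e-05, adjusted 0.00056; rho 0.52, permutation p = 0.00303, adjusted 0.015). Without the 2 farthest arrays these fell to 0.48 and 0.42. Within slides 1 and 3 they were 0.82 and 0.90 for the monocyte list and 0.73 and 0.81 for the T cell list. The monocyte list was not followed by Batf alone. For Fos the r with it was 0.68 (permutation p = 5e-05, adjusted 0.000408; rho 0.51, permutation p = 0.0046, adjusted 0.0186), 0.57 without the 2 farthest arrays and 0.89 and 0.86 within slides 1 and 3. For Fosl2 it was 0.66 (permutation p = 0.00011, adjusted 0.000674; rho 0.53, permutation p = 0.00307, adjusted 0.015), 0.53 without them and 0.95 and 0.85 within the slides. For Jun it was 0.59 (permutation p = 0.00052, adjusted 0.00232; rho 0.43, permutation p = 0.0205, adjusted 0.0558), 0.35 without them and 0.71 and 0.89 within the slides. Batf had an r of 0.41 with the neutrophil list (permutation p = 0.0207, adjusted 0.0423; rho 0.35, permutation p = 0.0592, adjusted 0.104), 0.27 without the 2 farthest arrays and 0.74 within each slide. Jund followed the erythroid list with r = 0.49 (permutation p = 0.00569, adjusted 0.0159; rho 0.57, permutation p = 0.00129, adjusted 0.0105), with 0.57 without the 2 farthest arrays, 0.82 on slide 1 and 0.25 on slide 3. Fos went against that list, with r = -0.56 (permutation p = 0.00137, adjusted 0.00516; rho -0.51, permutation p = 0.00493, adjusted 0.0186), -0.60 without the 2 farthest arrays and -0.68 and -0.75 within slides 1 and 3. Junb, Batf, Fosb and Fosl2 went against it too, with r = -0.49, -0.45, -0.43 and -0.42 (adjusted permutation p 0.0159, 0.0268, 0.0414 and 0.0418). Of these, Junb alone also passed by rho (-0.51, adjusted permutation p = 0.0184). Fos, Fosl2, Jun and Jund followed the B cell list (r = 0.51, 0.49, 0.47 and 0.42) and Jun the T cell list (0.47). Their adjusted permutation p ran from 0.0144 to 0.0441, and none of these passed by rho. Batf followed the platelet list with r = 0.41 (adjusted permutation p = 0.0441) but did not pass by rho (0.40, adjusted permutation p = 0.0642). Fosb passed with the B cell list by rho alone (0.54, adjusted permutation p = 0.015), with r = 0.38 (adjusted permutation p = 0.0623).

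Fos, Jun and Batf went against the intergenic signal, with r = -0.65, -0.68 and -0.69 (permutation p = 2e-05, 2e-05 and 0.00013, adjusted 0.000245, 0.000245 and 0.000708) and rho = -0.50, -0.61 and -0.44 (permutation p = 0.006, 0.00049 and 0.0153, adjusted 0.021, 0.0048 and 0.05). Without the 2 arrays farthest from each member's median the r was -0.56, -0.51 and -0.34. Within slide 1 it was -0.76, -0.74 and -0.87, and within slide 3 -0.73, -0.87 and -0.78. Fosl2 and Fosb went against it too, with r = -0.56 and -0.5 (adjusted permutation p 0.00465 and 0.0159) and rho = -0.39 and -0.56 (adjusted 0.0737 and 0.0108). Junb and Jund did not pass, with r = -0.38 and -0.1. The probes of these members are among those detected on all arrays, whose mean the signal subtracts, and how such probes in general relate to it was not tested.

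**Figure D5:**
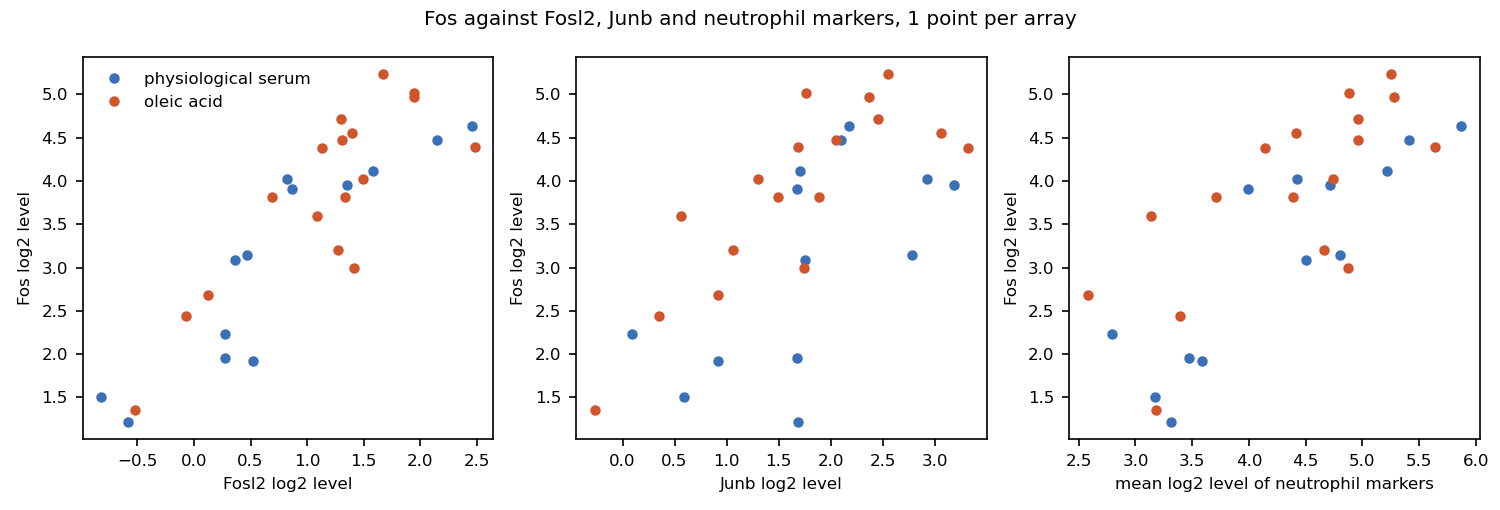
Log2 level of Fos against that of Fosl2 (left) and Junb (middle) and against the mean log2 level of 12 neutrophil markers (right), all relative to the 75th percentile of the array. Each point is 1 of 30 arrays, blue for physiological serum and orange for oleic acid. Both treatments lie along the same rising band in the left and right panels (r = 0.87 and 0.77), and the band is broader for Junb (r = 0.66).

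The genes most like each member were read off as the 3 highest Pearson r over the 30 arrays among 15840 genes with a symbol, as a description with no test. For Fos these were Dusp1 (0.925), a MAP kinase phosphatase, Trib1 (0.925), a pseudokinase, and Egr1 (0.923), a zinc finger immediate early gene. For Junb they were Spi1 (0.939), which encodes the myeloid factor PU.1, Vasp (0.909), an actin regulator, and Ier2 (0.903), an immediate early gene. For Fosl2 they were Tctex1d2 (0.939), Rnf149 (0.934) and Pla2g7 (0.928), and for Jun Ndufa5 (0.802), Eif4a1 (0.796) and Klf4 (0.793). For Batf they were Gm10269 (0.896), the ribosomal protein gene Rpl15 (0.896) and Mfsd10 (0.89). For Jund they were Arl4a (0.84), Ptp4a3 (0.798) and Mtcp1 (0.794), and for Fosb Ccdc126 (0.74), Lig4 (0.728) and Tigar (0.725). The best likeness was thus weakest for Fosb, and immediate early genes were among the 3 for Fos, Jun and Junb.

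Genes around the family were counted by 6 lists. Of 12 AP-1 partners of the ATF, BATF and MAF families, 3 were higher after OA at 24 h and 0 lower, where 13.1% of all genes were higher and 29.7% called in either direction. Atf2, which forms CRE-binding dimers with JUN, differed by 1.44 (SE 0.41, limma adjusted p = 0.0217) and Batf3, a factor of dendritic cell development, by 2.02 (SE 0.63, limma adjusted p = 0.0272). Atf3, a stress-induced factor, was not well above background on either serum array and was at least 4.24-fold higher after OA (limma adjusted p = 0.0132). The partners had a median of 0.82 at 24 h, against -0.04 over all genes. Before 24 h none passed the test. The smallest unadjusted p among them was that of Atf3 at 1.5 h, with a difference of 1.89 (SE 0.46, limma adjusted p = 0.476). Maff was at least 2.17-fold higher at that time (limma adjusted p = 0.476), as no serum array of 1.5 h held it well above background.

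Of 10 MAP kinase phosphatases and mRNA decay factors, which switch the pathway off and destroy its short-lived messages, 6 were higher after OA at 24 h and 0 lower (13.1% of all genes were higher). The count was 1 with scaling to the probes detected on all arrays, 1 with the replicate block, 2 in the authors' series table, 0 without OA 24 h replicate 1 and 1 without replicate 2 or 3. Dusp2 differed by 1.83 (SE 0.51), Dusp16 by 1.51 (SE 0.51), Dusp6 by 1.27 (SE 0.45), Zfp36, which encodes the decay factor tristetraprolin, by 2.03 (SE 0.72) and Zfp36l1 by 1.26 (SE 0.45), with limma adjusted p of 0.0217, 0.034, 0.041, 0.0417 and 0.0406. The sixth, Dusp4, was not well above background on the serum arrays, and its bound did not exceed the serum level (limma adjusted p = 0.0372). The list had a median of 1.39.

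Of 14 upstream kinases and factors 1 was higher and 1 lower at 24 h, where 13.1% of all genes were higher and 29.7% called in either direction. Mapk9, the kinase JNK2 that phosphorylates JUN, differed by 1.46 (SE 0.43, limma adjusted p = 0.0239), and Map2k7, a kinase that activates JNK, by -1.53 (SE 0.54, limma adjusted p = 0.0408). The list median was 0.35. Of 6 genes of JUN turnover 2 were higher, the ubiquitin ligase gene Itch by 1.64 (SE 0.60, limma adjusted p = 0.0463) and the COP9 signalosome subunit gene Cops5 by 1.04 (SE 0.33, limma adjusted p = 0.029), with a median of 0.96.

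The counts of the next 2 lists at 24 h stand beside 13.1% of all genes higher and 29.7% called in either direction. Of 11 measured genes commonly cited as AP-1 targets, Plaur, the urokinase receptor gene, was higher at 24 h by 1.42 (SE 0.38, limma adjusted p = 0.0206). Il6 passed in the other direction (limma adjusted p = 0.0433), but stood below that limit of detection in both 24 h groups, on all 5 arrays, so it has no fold. The median was 0.53. Plaur was also lower in the serum arrays on the next day than in the first hours, by -1.29 (SE 0.26, limma adjusted p = 0.047), the 1 gene of the 6 lists to pass in that comparison. Of 10 other immediate early genes 3 were higher at 24 h and 0 lower, Nr4a1 by 2.93 (SE 0.60, limma adjusted p = 0.0128), Klf4 by 2.40 (SE 0.50, limma adjusted p = 0.0132) and Klf6 by 1.52 (SE 0.43, limma adjusted p = 0.0217), with a median of 1.04.

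At the other 5 times 0 genes of these 6 lists passed the limma test after adjustment, as for all genes, and at 24 h all 6 counts were 0 without serum 24 h replicate 1, with slide as a block or with the intergenic signal as a covariate. Without OA 24 h replicate 1 they were 0 but for 2 of the other immediate early genes. At 3 h 11 of 12 partners, 10 of 10 phosphatases and decay factors and 6 of 6 turnover genes were above 0 (55.7% of all genes), and at 4 h 2, 1 and 0 of them were (44.4%). At 4 h the median of the phosphatases and decay factors was -0.82, that of the partners -0.77 and that of the other immediate early genes -0.64, against -0.16 over all genes. None of these values before 24 h passed the test.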

How the data were processed

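RNA was hybridised to 1-colour Agilent arrays and scanned; the deposited intensity values were made with Agilent Feature Extraction 10.5.1.1, per the submitters' processing notes and the file headers. The deposited series table holds the authors' log2 values of the same arrays, whose scaling no source used here states; it served as an alternative. Probe coordinates are on mm9, per the file headers.

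From 62976 spots, controls and outlier spots were left out, spots of 1 probe were averaged as log2 of the processed signal minus the array's 75th percentile, and probes well above background on at least 3 arrays were kept (35895 probes). The highest probe stood for a gene (25206 genes). Names were brought to current symbols by accession or symbol where tables allowed. limma 3.58.1 in R 4.3.3 fitted 12 group means with 18 residual degrees of freedom, Benjamini-Hochberg over all genes, two-sided, threshold 0.05. The procedure was tested on simulated data. Correlations used 1e+05 resamples. The number of arrays limits the precision.

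Members were always named; their differences at 1 time are printed with a test where the unadjusted p was under 0.05 or the difference at least 1. A list gene is named where its adjusted p was under 0.05, otherwise at most 2 per list and comparison. A probe not well above background on every array of 1 group has a fold bound: the bright group's mean against the higher of the dim probe's own signal and the lowest signal of any probe that passed the background test. The members and lists were chosen with earlier results of these data known. Alternatives covered scaling, background correction, the dim-probe filter, the probe rule, slide, replicate number, intergenic signal, the samples in the fit and each array left out.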

Additional observations from a re-analysis of the deposited data

Results flagged for a closer look

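In 5 members all OA arrays lay above all serum arrays at one time and below them at another. The difference between those times was not tested pair by pair, and the limma F test over the 6 differences gave adjusted p of 0.51 for Fos and for Fosl2, 0.646 for Fosb, 0.873 for Jund and 0.322 for Batf. For Fos the opposed values were 0.88 at 3 h and 1.72 at 24 h against -1.20 at 4 h. For Fosb they were 0.82 at 1.5 h and 0.98 at 24 h against -0.49 at 4 h. For Fosl2 they were 1.09 at 3 h and 0.65 at 18 h against -0.66 at 4 h. For Batf they were 0.29 at 18 h and 1.22 at 24 h against -0.71 at 4 h. For Jund they were 0.23 at 1 h against -0.20 at 3 h. Under other settings the sign turned for Fosb at 4 h (highest 0.08), for Jund at 3 h (highest 0.18) and, with other probe choices, for Fosl2 at 4 h (highest 1.56). The 4 h values rest on 1 serum array, and 1 of the 2 OA arrays there, replicate 2, had the second highest intergenic signal of the 30. Such separation was not particular to the family. For 39.7% of all genes OA lay wholly below that lone 4 h serum array, and 14% were wholly below at 3 h. The share wholly above, over the times named for it here, ran from 2.69% (18 h) to 25.8% (24 h). How many genes showed both orders was not counted.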

How the results depend on the processing

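The number of members called at 24 h was 2 (Jun and Batf). It was 1 with scaling to the probes always above background, with quantile normalization, with the authors' series table and with the replicate block, and 0 with slide as a block, with the intergenic signal as a covariate, with only the groups compared in the fit and without the 3 arrays that stand apart. It was 3 with normexp background correction, where Fos (1.81, limma adjusted p = 0.0399) joined Jun (1.66) and Batf (1.27). All genes called higher and lower were 5201 and 5613 there, against 3296 and 4187 in the main fit. In the settings with 1 member, in the order given, they were 1404 and 5218, 3383 and 2363, 2843 and 2431, and 1910 and 3229. With the slide block they were 1 and 8, with the intergenic covariate 0 and 2, and with only the groups compared 137 and 2720. Fosl2 was called downwards with the mean of its probes (-1.60) and with its lower probe (-4.19), and Fosl1 (-1.47) without the filter on dim probes, each beside Jun and Batf. All genes called higher and lower in these were 2967 and 4894, 3980 and 6126, and 3401 and 9723. Leaving out 1 array at a time gave 0 to 3 members. In the first 3 scalings Batf was the member called, at 0.71, 0.81 and 0.73 (limma adjusted p 0.0338, 0.0353 and 0.0286), and Jun was 0.68, 0.63 and 0.72 (limma adjusted p 0.142, 0.168 and 0.0873). Same-numbered arrays of the 2 treatments deviated together (r over 0.1) in 4 of 12 pairs, with r from -0.53 to 0.42. These are deviations from means of few arrays, so they cannot show that no pairing exists. Whether the numbers mark shared litters or days is not stated, and they were treated as names. In the fit with the replicate block Batf differed by 1.19 (limma adjusted p = 0.0429). Over all genes the count at 24 h ran from 2 to 13124 across the alternatives and from 38 to 12969 with 1 array left out, with 63 higher and 72 lower without OA 24 h replicate 1. The share of those calls that were upwards, 44.0%, became 78.9% for genes well above background on at least 15 arrays and 25.9% without the filter on dim probes. It became 21.2% with scaling to the probes always above background, 58.9% after quantile normalization and 53.9% in the series table. With the first of these the median difference of all genes at 24 h was -0.55 in place of -0.04, and with quantile normalization 0.18.

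The number of members called was 0 to 1 with 1 array left out for the mean over the 6 times, for the OA effect of the next day against the first hours, for the OA effect between times, for serum between times and for serum on the next day against the first hours. For the last it was also 1 in the authors' series table. Over all genes these counts with 1 array left out, in the same order, ran from 0 to 3287 and from 0 to 1185. They ran from 0 to 2113, 5 to 589 and 1 to 1932 for the other comparisons. For the last they ran from 0 to 278 under the other alternatives. The pairs of members called across arrays by Pearson r, 10, became 4 with scaling to the probes always above background and 5 after quantile normalization, with 3 and 4 of them among the 10. At 1, 1.5, 3, 4 and 18 h the count of members stayed 0 under every alternative run.

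Of the 42 member differences at single times, 20 changed sign under at least 1 alternative that left no array out singly, 17 of them under a choice other than that of the probe. None of the 20 had passed the test. Under these alternatives signs did not turn for Fos at any time, nor for Jun or Batf at 24 h. With 1 array left out at a time, the sign of Fos at 18 h turned in 1 of 30 fits. For Junb at 24 h the range was -0.42 to 0.49, for Fosb at 4 h -0.58 to 0.08, for Jun at 4 h -0.53 to 0.53 and for Jund at 24 h -0.86 to 0.10. In the means over the 6 times Jund was -0.04, -0.07 and -0.06 with the always-detected scaling, quantile normalization and the series table, and -0.08 to 0.13 with 1 array left out. Junb was 0.01 with normexp background correction, 0.06 with the slide block and -0.32 to 0.12 with 1 array left out. Fosl2 was -0.01 for the mean of its probes and -0.48 for the lower probe, a choice added after seeing the data. Jun was -0.03 with the slide block and -0.02 with the intergenic covariate. The causes were not tested. Within-slide values at 24 h could not be computed. The probe of Fosl1 gave bounds only.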
